A study of Homo sapiens with 16 samples.

Results

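The genes described are 10 cyclins and cyclin-dependent kinases of the cell cycle, taken as a list of symbols whatever their values, of 60676 gene identifiers in the deposited tables: the D-type cyclins CCND1, CCND2 and CCND3, the E-type cyclins CCNE1 and CCNE2, cyclin A2 (CCNA2), the B-type cyclins CCNB1 and CCNB2, and the G1 kinases CDK4 and CDK6. Their RNA was measured by total RNA sequencing in A101D and MeWo, 2 melanoma lines of human origin, from which 8 libraries each were made and numbered as replicates 1 to 8. The labels call A101D methionine dependent. They call MeWo methionine independent: its cells are known to grow when homocysteine is given in place of methionine. All cells grew in medium with 150 µM cystine and either 200 µM methionine (control) or 200 µM homocysteine without methionine, and no label says which library had which medium. Values are therefore given by line and by replicate set, replicates 1 to 4 and replicates 5 to 8, and no medium is attached to a set. The sets were taken with it known that A101D libraries fall apart between them, so a p-value for the sets measures the size of a difference against the spread and is not independent evidence that the sets differ. Each line is a single cell line, so a difference between them cannot be tied to methionine dependence, and nothing states that libraries came from separate cultures, so the spread may be technical.

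Cyclins are the regulatory partners of the cyclin-dependent kinases, and most of those that drive the cell cycle are made and destroyed in order through it. D-type cyclins bind CDK4 and CDK6 in G1 and start the phosphorylation of the retinoblastoma protein RB, which holds back E2F transcription factors. E-type cyclins with CDK2 complete that step at the entry to S phase, cyclin A2 acts in S phase and G2, and B-type cyclins with CDK1 drive mitosis. In melanoma, signalling through the MAPK pathway feeds into cyclin D1, and changes in the CDK4 pathway are known in this tumour type.

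The libraries held 28910881 to 38961862 counts. All 7 melanocyte lineage markers checked had a median of at least 1 CPM (counts per 1e6 of the scaled library size) in each of the 4 groups, and 4 leukocyte markers summed to at most 0.573 CPM in any library. Of the melanocyte markers, TYR was near that cut in A101D, with set medians of 1.45 and 1.69 CPM, against 316 and 288 CPM in MeWo. MeWo replicate 2 stood apart with counts for 34471 genes (30066 to 31433 in the rest of its line), and results that change without it are named. Of the 10 genes, 9 passed the low-count filter in both comparisons. CCND2 did not and was not tested.

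In A101D, all 9 tested genes were lower in replicates 5 to 8 than in replicates 1 to 4, and for none of the 9 did the libraries overlap. The log2 differences ran from -0.25 for CCND1 to -3.77 for CCNE2, with a median of -1.62, beside a median of -0.05 over all genes. Of all genes tested, 35.8% were lower by the same threshold and 32.9% were lower without overlap. In MeWo, CCND3, CCNE1, CCNE2 and CDK6 were lower in replicates 5 to 8, by 0.22 to 0.32 on the log2 scale, where 8.51% of all genes were lower. The other 5 did not pass the threshold, and 5 genes were lower without overlap, where 8.11% of all genes were. The difference between the lines in this change passed the threshold for 9 of 9 genes, always with the larger drop in A101D (log2 0.27 to 3.55), where 27.6% of all genes changed in that direction. The larger drops lay in the cyclins of late G1 to mitosis and in CCND3, and the smaller ones in CCND1, CDK4 and CDK6. In RNA of whole cultures, fewer cells that express a gene and less of its RNA per cell cannot be told apart.

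**Figure D1:**
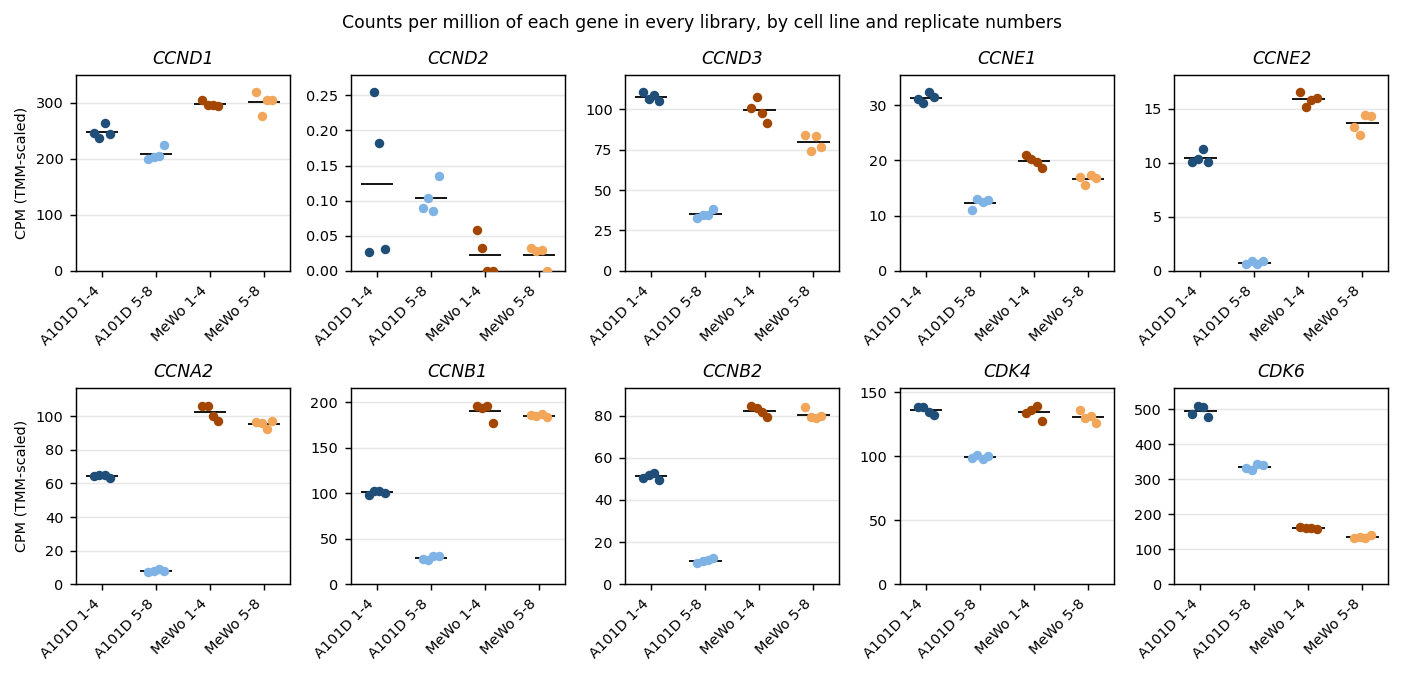
Scaled counts per 1e6 (CPM) on the vertical axis for each of the 10 genes, 1 point per library, with bars at the mean of each group of 4 libraries. For all genes but CCND2, the A101D libraries of replicates 5 to 8 lie below those of replicates 1 to 4. The MeWo libraries do the same for CCND3, CCNE1, CCNE2, CCNA2 and CDK6, by less than in A101D. For the other genes the MeWo sets overlap.

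The scaling of the libraries sets the background of these calls. With total counts only, 40.5% of the genes called between the A101D sets were lower, against 54.8% with the scaling used, and 33.7% against 64.96% between the MeWo sets. For the difference between the lines in the change from replicates 1 to 4 to replicates 5 to 8, 45.8% of called genes were higher with total counts only, against 57.0%. Total counts also raised the median of all genes between the A101D sets from -0.05 to 0.11. The 9 genes stayed lower in A101D replicates 5 to 8 with each scaling, CCND1 least, at -0.09 with total counts only.

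Over all libraries, 6 of the 9 genes were higher in MeWo (CCND1, CCNE2, CCNA2, CCNB1, CCNB2 and CDK4), where 38.2% of all genes were higher. CDK6 was the 1 gene lower in MeWo, where 40.5% of all genes were lower. CCND3 (0.54, adjusted p 0.0936) and CCNE1 (-0.10, adjusted p 0.726) did not pass the threshold. Their calls depend on the model. Averaged over the sets in the 4-group model, which takes the gap between the sets out of the spread, CCND3 was higher (0.53, adjusted p 3.14e-18) and CCNE1 lower in MeWo (-0.11, adjusted p 0.0128). With a replicate block CCND3 was also called (0.50, adjusted p 0.0474). Within replicates 1 to 4, 5 genes were higher in MeWo, beside 35.8% of all genes, and CCND3, CCNE1 and CDK6 were lower, beside 43.3%. Within replicates 5 to 8, 8 genes were higher, beside 40.5%, and CDK6 was lower, beside 43.5%. These 2 comparisons use different libraries of each line. Because the A101D sets lie apart, the difference over all libraries is a mean of unlike values, as for CCNE2 (2.45, against 0.61 and 4.16 in the sets) and CCNA2 (2.17, against 0.67 and 3.59). For CCND3 and CCNE1 the called differences in the sets had opposite signs.

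**Figure D2:**
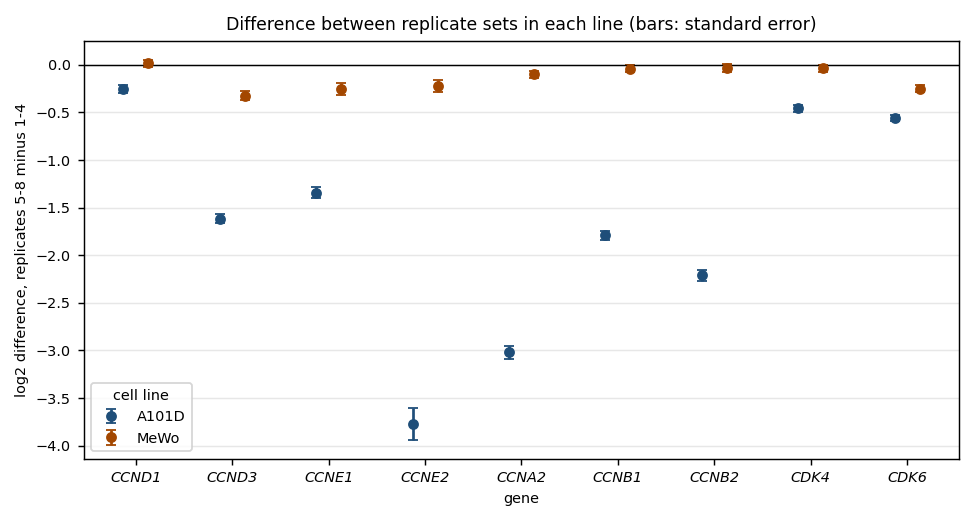
Log2 difference of replicates 5 to 8 minus replicates 1 to 4 for the 9 tested genes, A101D and MeWo side by side, with standard errors as bars. The A101D points fall between -0.25 and -3.77, and the MeWo points lie between -0.32 and 0.01.

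Cyclin D1, encoded by CCND1 (ENSG00000110092, GRCh38 chromosome 11, 69641087 to 69654474), links growth factor signalling to CDK4 and CDK6. In A101D it had 246, 237, 263 and 244 CPM in replicates 1 to 4 and 199, 203, 205 and 224 CPM in replicates 5 to 8. Its MeWo values were 304, 296, 295 and 295 CPM in replicates 1 to 4 and 318, 276, 304 and 305 CPM in replicates 5 to 8. Every MeWo library was above every A101D library, and in A101D the sets did not overlap. The line difference over all libraries was 0.40 ± 0.06 (log2, SE), with an adjusted p of 6.07e-06 (limma). Between the A101D sets it was -0.25 ± 0.04 (adjusted p 6.85e-07), and between the MeWo sets 0.01 ± 0.04 (adjusted p 0.873). CCND1 shares 497 exonic bases with LTO1 on the opposite strand. LTO1 had medians of 16.9 and 17.0 CPM in the A101D sets and 50.8 and 49.9 CPM in the MeWo sets. The counting settings are not given, and reads in the shared bases could be counted for either gene or for neither.

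Cyclin D3, encoded by CCND3 (ENSG00000112576, chromosome 6, 41934933 to 42050357), is another partner of CDK4 and CDK6. In A101D it had 110, 106, 109 and 105 CPM in replicates 1 to 4 and 32.6, 34.7, 34.7 and 38.4 CPM in replicates 5 to 8. In MeWo it had 100.9, 108, 97.9 and 91.3 CPM in replicates 1 to 4 and 83.9, 74.0, 83.1 and 76.6 CPM in replicates 5 to 8. Within each line the sets were apart, and only in replicates 1 to 4 did the lines overlap. CCND3 was lower in A101D replicates 5 to 8 (-1.62 ± 0.05, adjusted p 8.69e-29), 3.06-fold, and lower in MeWo replicates 5 to 8 (-0.32 ± 0.05, adjusted p 3.59e-06). In replicates 1 to 4 it was a little lower in MeWo than in A101D (-0.12 ± 0.05, adjusted p 0.0203). That call was lost with median-of-ratios factors (adjusted p 0.12), with total counts only (0.0535), and without A101D replicate 1 (0.0601), A101D replicate 2 (0.0934) or MeWo replicate 4 (0.115).

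Cyclin D2, encoded by CCND2 (ENSG00000118971, chromosome 12, 4273772 to 4305350), was close to the limit of detection. It had 1, 8, 5, 1, 3, 4, 3 and 5 counts in A101D replicates 1 to 8 and 2, 1, 0, 0, 1, 1, 1 and 0 counts in those of MeWo. The 30 counts of A101D against 6 of MeWo gave a ratio of 5.03 (95% exact interval 2.06 to 14.8, counting error only). So few counts in libraries of this depth leave the order of single libraries unread.

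Cyclins E1 and E2 bind CDK2 at the start of S phase. CCNE1 (ENSG00000105173, chromosome 19, 29811898 to 29824308) had 31.2, 30.4, 32.3 and 31.4 CPM in A101D replicates 1 to 4 and 11.0, 13.1, 12.5 and 12.9 CPM in replicates 5 to 8. The MeWo libraries had 21.0, 20.2, 19.6 and 18.6 CPM in replicates 1 to 4 and 17.1, 15.5, 17.3 and 16.9 CPM in replicates 5 to 8. So the order of the lines turned: A101D was the higher line in replicates 1 to 4 (MeWo minus A101D -0.66 ± 0.05, adjusted p 1.16e-14) and the lower one in replicates 5 to 8 (0.43 ± 0.06, adjusted p 5.43e-08). The line difference over all libraries averages over this turn.

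CCNE2 (ENSG00000175305, chromosome 8, 94879770 to 94896678) showed the largest difference of the 9 genes. In A101D it had 10.1, 10.3, 11.3 and 10.1 CPM in replicates 1 to 4 and 0.601, 0.877, 0.630 and 0.917 CPM in replicates 5 to 8. Its MeWo values were 16.5, 15.2, 15.8 and 16.1 CPM in replicates 1 to 4 and 13.3, 12.5, 14.5 and 14.3 CPM in replicates 5 to 8. The A101D sets were 13.6-fold apart (-3.77 ± 0.17, adjusted p 1.6e-23), and the MeWo sets 1.17-fold (-0.22 ± 0.06, adjusted p 0.0143). The MeWo call was lost with total counts only (adjusted p 0.081), without a low-count filter (0.0822), with limma-trend (0.171), and without MeWo replicate 1 (0.0625) or MeWo replicate 6 (0.088). CCNE2 shares 1629 exonic bases with INTS8 on the opposite strand. INTS8 was also lower in A101D replicates 5 to 8, by a smaller amount (-0.94, adjusted p 1.27e-20), and how its reads were split from those of CCNE2 was not tested.

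Cyclin A2, encoded by CCNA2 (ENSG00000145386, chromosome 4, 121816444 to 121823933), partners CDK2 and CDK1 in S phase and G2. In A101D it had 64.2, 65.2, 65.2 and 63.2 CPM in replicates 1 to 4 and 7.36, 7.63, 9.13 and 7.71 CPM in replicates 5 to 8. In MeWo it had 106, 106, 100 and 97.4 CPM in replicates 1 to 4 and 96.8, 96.1, 92.7 and 97.1 CPM in replicates 5 to 8. The A101D sets were 8.11-fold apart (-3.02 ± 0.06, adjusted p 8.11e-35). In MeWo the libraries of the sets did not overlap, but the difference missed the threshold (-0.10 ± 0.04, adjusted p 0.0963), and it passed without MeWo replicate 4 (adjusted p 0.0211). CCNA2 shares 254 exonic bases with EXOSC9 on the opposite strand, which was lower in A101D replicates 5 to 8 by -0.78 on the log2 scale.

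Cyclins B1 and B2 activate CDK1 for mitosis. CCNB1 (ENSG00000134057, chromosome 5, 69167010 to 69178245) had 98.6, 103, 102 and 100 CPM in A101D replicates 1 to 4 and 28.0, 27.0, 31.3 and 30.8 CPM in replicates 5 to 8. MeWo libraries had 196, 194, 196 and 177 CPM in replicates 1 to 4 and 186, 185, 187 and 183 CPM in replicates 5 to 8. It was 3.45-fold lower in A101D replicates 5 to 8 (-1.79 ± 0.05, adjusted p 1.09e-31), while the MeWo sets overlapped (-0.04 ± 0.04, adjusted p 0.57). CCNB2 (ENSG00000157456, chromosome 15, 59105078 to 59125045) ran from 49.6 to 52.9 CPM and from 9.82 to 12.2 CPM in the A101D sets, 4.63-fold lower in replicates 5 to 8 (-2.21 ± 0.06, adjusted p 1.44e-31). In MeWo it ran from 79.3 to 84.8 CPM and from 78.9 to 84.0 CPM, with the sets overlapping (-0.03 ± 0.04, adjusted p 0.691).

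CDK4 and CDK6 are the kinases that D-type cyclins activate. CDK6 (ENSG00000105810, chromosome 7, 92604921 to 92836594) had 487, 511, 508 and 478 CPM in A101D replicates 1 to 4 and 333, 327, 345 and 341 CPM in replicates 5 to 8. The MeWo values were 163, 161, 160 and 157 CPM in replicates 1 to 4 and 132, 136, 132 and 140 CPM in replicates 5 to 8. Every A101D library was above every MeWo library, and CDK6 was the 1 gene of the 9 that was higher in A101D in both sets. The line difference was -1.47 ± 0.11 (adjusted p 9.5e-10), a 2.77-fold higher level in A101D. Between the sets it was -0.56 ± 0.03 in A101D (adjusted p 3.71e-19) and -0.25 ± 0.04 in MeWo (adjusted p 4.81e-06).

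CDK4 (ENSG00000135446, chromosome 12, 57747727 to 57756013) ran from 132.5 to 139 CPM in A101D replicates 1 to 4 and from 97.7 to 100.9 CPM in replicates 5 to 8. In MeWo it ran from 127 to 139.6 CPM in replicates 1 to 4 and from 126 to 136 CPM in replicates 5 to 8. The lines overlapped in replicates 1 to 4 (-0.02 ± 0.04, adjusted p 0.619) and not in replicates 5 to 8 (0.40 ± 0.04, adjusted p 5.8e-13). Over all libraries CDK4 only just passed, at 0.19 ± 0.08 (adjusted p 0.0477), and did not pass without MeWo replicate 2 (adjusted p 0.0713). No other library was left out of that comparison. It shares 1369 exonic bases with TSPAN31 on the opposite strand, which was not called between the A101D sets (-0.09, adjusted p 0.104).

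Levels of different genes were compared per kb of annotated exon, taking all exons of a gene, and their order depends on that length. In A101D replicates 1 to 4, CCND1 led with a median of 50.7 CPM per kb, followed by CDK4 at 43.1, CDK6 at 40.6 and CCNB1 at 39.6, of which the ranges of CDK6 and CCNB1 overlapped. In A101D replicates 5 to 8, CCND1 (42.3), CDK4 (31.4) and CDK6 (27.5) kept the first 3 places and CCNB1 was at 11.5, while CCNA2 was at 2.74 and CCNE2 at 0.171. In MeWo, CCNB1 led in both sets (76.2 and 72.5 CPM per kb), followed by CCND1 (61.1 and 63.0), CDK4 (42.6 and 41.3), CCNA2 (36.9 and 34.5), CCNB2 (29.5 and 28.4), CCND3 (17.1 and 13.8) and CDK6 (13.1 and 10.9). The ranges of these MeWo neighbours did not overlap within a set. Across both lines, CCNE1 and CCNE2 were below all other tested genes except in A101D replicates 5 to 8, where CCNA2 and CCNB2 had lower medians than CCNE1. With the longest annotated transcript as length, an alternative chosen after seeing the data, CDK4 led CCND1 in A101D replicates 1 to 4 (65.8 against 56.8 CPM per kb). The medians of CCNB1 (46.6) and CCND3 (44.9) were then above that of CDK6 (42.8), and the range of CCND3 overlapped those of CCNB1 and CDK6. In A101D replicates 5 to 8, CDK4 (47.9) and CCND1 (47.5) then overlapped. In MeWo replicates 1 to 4, CCND3 (41.5) was then above CCNA2 (36.9) and CCNB2 (33.0), and in replicates 5 to 8 its range overlapped theirs.

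Within 3 of the 4 families the shares of the A101D sets did not overlap, and those of CDK4 and CDK6 did. CCND1 made up 73.4% ± 0.752 of the D-type cyclin level in A101D replicates 1 to 4 (SD, n = 4) and 87.7% ± 0.222 in replicates 5 to 8, and in MeWo 78.2% ± 1.13 and 82.0% ± 0.536. CCNE1 made up 83.8% ± 0.523 and 96.6% ± 0.532 of the E-type cyclin level in A101D, against 68.3% ± 1.25 and 67.8% ± 0.813 in MeWo. CDK6 made up 48.5% ± 0.757 and 46.7% ± 0.877 of the 2 kinases in A101D, against 23.6% ± 0.577 and 21.0% ± 0.971 in MeWo. CCNB1 made up 68.3% ± 0.379 and 74.4% ± 1.36 of the B-type cyclin level in A101D, against 71.7% ± 0.573 and 71.6% ± 0.610 in MeWo. The MeWo sets did not overlap in the CCND1 and CDK6 shares and overlapped in the other two. These shares depend on the exon length used: with the longest annotated transcript, the CCND1 share in A101D was 56.1% and 76.7%. The order of the sets and of the lines was the same for the CCND1 and CDK6 shares with either length.

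**Figure D3:**
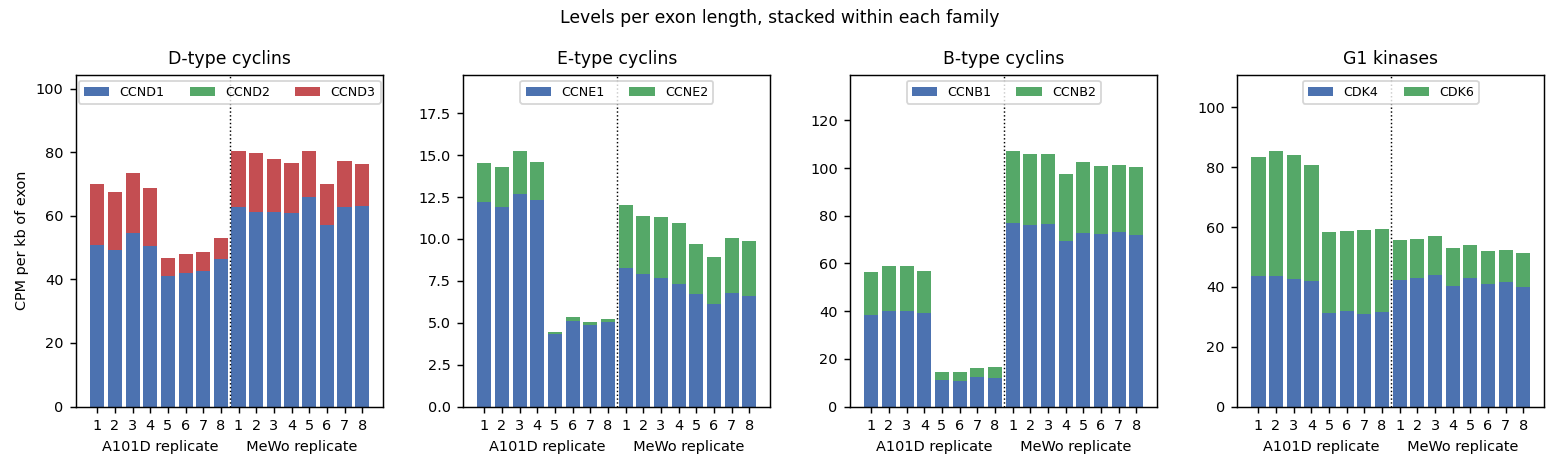
CPM per kb of exon for each library, stacked by gene within the D-type, E-type and B-type cyclins and the G1 kinases, with A101D replicates 1 to 8 left of the dotted line and MeWo replicates 1 to 8 right of it. CCNE2 is nearly absent from the A101D bars of replicates 5 to 8, where it had 0.137 to 0.208 CPM per kb, and CDK6 fills a larger part of the kinase bars in A101D.

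CCNA2, CCNB1, CCNB2 and CCNE1 are printed with positions -70 to -41 before their RefSeq transcription start (GRCh38.p14). Each was lower in A101D replicates 5 to 8, and CCNE1 is shown as a stretch without CCAAT. Capitals mark CCAAT, or ATTGG where it lies on the opposite strand, the sequence bound by the factor NF-Y. The stretches are chr4:121823924-121823953 (- strand), chr5:69167080-69167109 (+ strand), chr15:59105076-59105105 (+ strand) and chr19:29811921-29811950 (+ strand).
CCNA2: ccgcgagcgctttcATTGGtccatttcaat
CCNB1: agtgccacgaacaggCCAATaaggagggag
CCNB2: ccgtgcgcagggccgcCCAATggggcgcaa
CCNE1: gcggtgcgagggcgggccggggccggttcc
The motifs and the promoters shown were chosen after matches had been seen. Of the 10 genes, 7 matched an entry of the RefSeq promoter table. CCNB1 held CCAAT at positions -87 and -55 before the start, CCNA2 held its reverse complement at -56, and CCNB2 held it at -244, -120, -87 and -54. CCND3 held it before 2 of its 3 listed starts, at -136 and, on the opposite strand, at -64. No CCAAT lay in the 250 bases before the CCNE1, CDK4 or CDK6 starts, and 32.0% of 35116 starts in the table hold it. TTTGAA was in the CCNB2 window (13.3% of starts) and TTTAAA in those of CCNB1, CCNB2 and CCNE1 (11.3% of starts). The E2F-like sequences TTTCGCGC, TTTGGCGC and TTGGCGC, and TTCGAA, were in none of the 7 genes' windows (0.439%, 0.550%, 2.56% and 1.19% of starts), TTCGCGC was in that of CCNB1 (1.85%), and GGCGGG was in those of 6 genes (42.5%). TTTCGCGC contains TTCGCGC and TTTGGCGC contains TTGGCGC. Both strands were searched. A gene is named when any of its listed starts had a match, while the percentages are per start, so the 2 are not in the same unit. A match is a description of letters only.

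Other genes of the cell cycle engine were mostly lower in A101D replicates 5 to 8, beside 35.8% of all genes lower and 29.6% higher. Of 12 kinases, phosphatases and regulators of the cell cycle, 12 were lower, with a median log2 difference of -1.74. The largest differences were in MYBL2 (-2.77), a transcription factor of the cell cycle, CDC25A (-2.75), a phosphatase that activates CDKs, CDK1 (-2.53), the kinase of mitosis, and PKMYT1 (-2.43), which inhibits CDK1. CDK2, the partner of cyclins E and A, was lower by -1.16. Of 13 genes of the RB and E2F group, 12 were lower and E2F5 was higher (0.27), with a median of -0.65. E2F2 (-5.18), E2F8 (-2.54), E2F1 (-2.44) and RBL1 (-2.28), an RB relative, led, and RB1 was lower by -0.78. These lists, like the 10 genes, were chosen with earlier results of these data known.

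Genes that destroy cyclins, and cyclins and kinases outside the cell cycle engine, were called in both directions between the A101D sets, beside the same 35.8% of all genes lower and 29.6% higher. Of 10 turnover genes, 7 were lower and 1 higher, led by FBXO5 (-2.83), an inhibitor of the anaphase-promoting complex, UBE2C (-1.96) and CDC20 (-1.85), which serve that complex, and SKP2 (-1.52), an F-box protein that targets CDKN1B. Of 18 cyclins and kinases with other tasks, among them transcription, 10 were lower and 5 higher, with a median of -0.15. The share higher was near that of all genes, and the share lower was above that of all genes. CDK8 (-0.78), CCNC (-0.71), CDK12 (-0.67) and CCNG2 (-0.66) had the largest differences.

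Of the 7 CDK inhibitors, 3 were higher and 2 lower in A101D replicates 5 to 8, beside 29.6% and 35.8% of all genes. The other 2 had no count in any A101D library and were not called. CDKN2C (p18), an inhibitor of CDK4 and CDK6, had the largest difference (-1.50, adjusted p 3.82e-25), from a median of 33.4 CPM to 11.5 CPM. CDKN1C (p57) was higher at a very low level, with medians of 0.0769 and 0.251 CPM (1.43, adjusted p 0.00445). CDKN1A (p21) was at a median of 391 and 684 CPM in the A101D sets (0.79, adjusted p 2.31e-24) and at 17.9 and 14.9 CPM in MeWo (-0.27, adjusted p 0.00153), so the sets moved in opposite directions in the lines, and the difference was tested (-1.07, adjusted p 3.49e-17). CDKN1B (p27) was lower in A101D replicates 5 to 8 (-0.33, adjusted p 2.11e-07).

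In MeWo the differences between the sets were smaller, beside 8.51% of all genes lower and 4.59% higher. Of the 12 kinases, phosphatases and regulators of the cell cycle, 2 were lower, CDC25A (-0.39) and MYBL2 (-0.22), and CDK1 (0.05) and CDK2 (0.09) did not pass the threshold. Of the 13 RB and E2F genes, 4 were lower, E2F2 (-0.28), E2F3 (-0.22), TFDP1 (-0.15) and E2F1 (-0.15), and RB1 was at -0.14 (adjusted p 0.0606). Of 10 turnover genes 1 was higher and 1 lower.

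**Figure D4:**
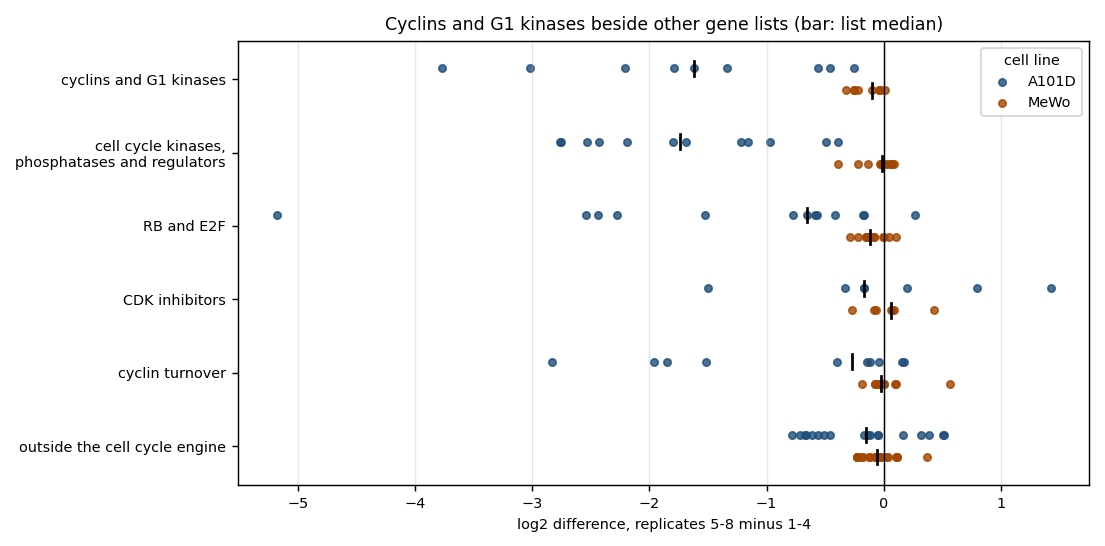
Log2 difference of replicates 5 to 8 minus replicates 1 to 4 on the horizontal axis for the 9 tested cyclins and G1 kinases and 5 other gene lists, 1 point per gene, with the median of each list as a bar. In A101D the list of kinases, phosphatases and regulators has a median of -1.74 and the cyclins and G1 kinases -1.62, and in MeWo the list medians lie between -0.12 and 0.06.

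Markers of other cell types also moved with the A101D sets. The 3 endothelial markers summed to 3.81 to 4.86 CPM in replicates 1 to 4 and to 14.9 to 19.4 CPM in replicates 5 to 8, mostly VWF. The 3 epithelial markers summed to 119 to 127 CPM and to 155 to 184 CPM, mostly KRT18, and the 4 keratinocyte markers to 0.413 to 0.885 CPM and to 1.78 to 2.48 CPM, with KRT1 at 0. The melanocyte markers summed to 2931 to 3510 CPM and to 2456 to 2689 CPM, with DCT the largest part. Of these 7 markers, 5 were lower, 1 was higher and 1 was not called, beside 35.8% of all genes lower and 29.6% higher. The medians of DCT were 1699 and 1327 CPM, and those of PMEL 208 and 238 CPM. The share of counts from mitochondrial genes was 1.71% to 1.92% in the first A101D set and 1.93% to 2.33% in the other. The part of these shifts in the cyclin differences was not tested.

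The genes whose pattern over the 16 libraries was most like that of a cyclin or kinase were found by Pearson's r on log2(CPM + 1), centred within each line, among genes with a mean of at least 10 CPM. LMNB1, KIF11 and SPAG5 were closest to CCNA2 (r 0.999 each), RRM2, CDCA5 and FAM111B to CCNB1 (0.999, 0.998 and 0.998), and ZWINT, ASF1B and UHRF1 to CCNE2 (0.997 each). AXL, CACNB3 and SLC39A13 were closest to CCND1 (0.962, 0.956 and 0.945), and IGF2BP3, PSME4 and SLC6A6 to CDK6 (0.990, 0.988 and 0.988). The A101D sets lie apart for these genes, and that gap enters every r. The search covered CCND1, CCNE2, CCNA2, CCNB1 and CDK6, and CCND2 had too few counts for it. The other 4 genes were not searched.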

How the data were processed

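The authors deposited 1 table per cell line with whole-number counts per gene, each cell joining an Ensembl identifier and its count. The values are counts over exons that were not normalized, per the file headers. The submitters' processing notes name Trimmomatic 0.39-1, STAR 2.7.1a, featureCounts 2.0.0 and the build GRCh38, without parameters. Which annotation release was counted, and whether by strand, is not given in the sources used here.

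Both parts of each cell were separated, and all 16 columns were used. Symbols matched 60357 of 60676 identifiers, and positions and exon lengths are those of GENCODE 29. TMM factors (trimmed means of M-values, with 30% of ratios and 5% of means trimmed) scaled the library sizes. Genes needed 0.298 CPM (counts per 1e6), which is 10 counts at the median depth, and 15 counts in all. They needed that CPM in at least 8 libraries for the comparison of the lines and in at least 4 for the comparisons of replicate sets. This left 19247 and 21569 genes. Differences were tested with limma 3.58.1 in R 4.3.3 (voom weights, robust empirical Bayes), with p-values adjusted after Benjamini and Hochberg over all genes tested and a threshold of 0.05. The line difference over all libraries came from a model with the line alone. All other differences came from a model with 4 groups, line by replicate set, which share 1 estimate of the spread.

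The genes described, the gene lists and the split at replicate 4 were chosen with earlier results of these data known. Of each list at most 4 genes past the threshold with the largest change are named, plus CDK1, CDK2, RB1, E2F1, CDKN1A and CDKN1B. In simulated counts of 20595 genes for the A101D replicate sets, 90.9% of 2-fold and 99% of 4-fold changes were recovered. For the line difference (19490 genes) the shares were 98.9% and 100%. In the data, the model with the line alone gave standard errors of 0.55 for CCNE2 and 0.28 for CCND3, whose A101D sets lie apart. The shares are those of simulated counts and do not give the recovery for genes with such a gap between sets. Alternatives covered scaling, filters, threshold, limma-trend, a replicate block, the line difference averaged over the 4-group model, single libraries left out and transcript length. In the 4-group model each library was left out in turn. In the model with the line alone, only MeWo replicate 2 was left out.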

Additional observations from a re-analysis of the deposited data

Results flagged for a closer look

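Of 54 groups of libraries checked for a value far from the rest, 2 held one, and 1 in 20 of the groups would be 2.7. The groups are the lines and the replicate sets within them, so they share libraries. Because the A101D sets lie apart, a single far value can hardly be flagged in that line as a whole. So 2.7 is not the number that chance gives here. CCND1 was 303.8 CPM in MeWo replicate 1, and its gap to the next of the other libraries of replicates 1 to 4 took 0.888 of their range, above Dixon's critical value for 4 libraries. CCNB1 was 177.1 CPM in MeWo replicate 4, with a gap of 0.882 of the range. Neither gene passed the threshold between the MeWo replicate sets with all libraries.

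All 9 tested genes were marked because the difference between the replicate sets was not the same in the lines, by a test of that difference in limma. The log2 differences of MeWo minus A101D were 3.55 for CCNE2, 2.92 for CCNA2, 2.18 for CCNB2, 1.75 for CCNB1, 1.29 for CCND3, 1.09 for CCNE1, 0.42 for CDK4, 0.31 for CDK6 and 0.27 for CCND1.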

How the results depend on the processing

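The 9 lower calls of A101D replicates 5 to 8 and the 9 calls of the difference between the lines in that change kept their direction and their side of the threshold under every scaling, filter and test tried and without any single library. The scaling moved the background: with total counts only, the median log2 difference of all genes between the A101D sets was 0.11 in place of -0.05, and CCND1 was at -0.09 in place of -0.25 (adjusted p 0.0358, limma).

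Under median-of-ratios factors and total counts only, CDK4 turned from -0.02 to 0.018 in both between the lines in replicates 1 to 4. With total counts only, the MeWo set differences turned to 0.015 for CCNB1, 0.023 for CCNB2 and 0.021 for CDK4. None of these values passed the threshold. With 1 library left out, CDK4 between the lines in replicates 1 to 4 ran from -0.0395 to 0.014, above 0 without A101D replicate 2 or MeWo replicate 4. CCND1 between the MeWo sets ran from -0.012 to 0.055, below 0 without MeWo replicate 5. At a threshold of 0.01, 1540 genes in place of 2825 were called between the MeWo sets, which follows from the stricter threshold.

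With the longest annotated transcript as length, the CCND1 share of the D-type cyclins was 56.1% and 76.7% in A101D replicates 1 to 4 and 5 to 8, and 62.5% and 67.8% in those of MeWo. The CDK6 share of CDK4 and CDK6 was 39.4% and 37.7% in A101D and 17.6% and 15.6% in MeWo. The CCNE1 share was 83.0% in A101D replicates 1 to 4 and 66.6% in MeWo replicates 5 to 8. The CCNB1 share was 69.5% in A101D replicates 1 to 4, and 72.8% and 72.6% in MeWo replicates 1 to 4 and 5 to 8. The change follows from the lengths alone.

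With a replicate block (the number as a factor) in limma, CCND3 was called higher in MeWo over all libraries (0.50, adjusted p 0.0474), and no other call on the 9 genes changed with it. The line difference averaged over the 4-group model called CCND3 (0.53) and CCNE1 (-0.11), and the other 7 calls were the same. The deviations of same-numbered libraries from their line means, which include the gap between the sets, had correlations of 0.08 to 0.27. Of these 8 pairs, 2 correlated best with their own number. Deviations from the means of the replicate sets had correlations of -0.07 to 0.21, with 3 of 8 best with their own number. Low correlations cannot show that the libraries are unpaired, so whether the numbers pair them is not known. The block could not be fitted within a line, where each number occurs once.

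Depth limits CCND2 most, with 30 counts in A101D and 6 in MeWo over all libraries. Without a low-count filter it was tested and called lower in MeWo (log2 difference -1.74, adjusted p 0.00313, limma).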
